A study of Mus musculus with 30 samples.

Results

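Unfractionated RNA of mouse embryoid bodies was compared with that of undifferentiated embryonic stem cells, across every gene of the array. The comparison rests on 6 of the 30 arrays of the series: 3 of total RNA from day-5 embryoid bodies (EB) and 3 of total RNA from embryonic stem cells (ESC). All 45037 probe sets that are not array controls were tested, out of 45101, and they represented 18193 genes. The cells are R1, an established mouse ESC line. EB are floating aggregates that such cells form once LIF, the cytokine that keeps them undifferentiated, is taken away, and the EB here had grown 5 days without it; the ESC had grown with it. Both states were given cycloheximide, a drug that stops ribosomes on their mRNAs, at 150 ug/ml for 15 min before harvest, so that both groups carry the drug, and 2.5 ug of RNA went into each labelling reaction. The labels name the 3 samples of a state as biological replicates of 1 line and do not say how the cultures were kept apart. The arrays of sucrose gradient pools were not used.

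LIF acts through the receptor subunits Lifr and Il6st and the kinase Jak1 on the transcription factor STAT3, which in mouse ESC maintains a group of naive pluripotency factors and switches on its own inhibitor, Socs3. FGF4 made by the cells acts through ERK in the opposite direction and is held in check by feedback genes of the Sprouty and dual-specificity phosphatase families. After LIF withdrawal the cells pass from the naive state to a formative and then primed epiblast state marked by Otx2, and from there to the germ layers or, in the embryo, to germ cells.

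Signals are given on 2 scales. The deposited scale holds the log2 signals as the authors gave them, on which the spike-in control RNAs stood at the same level on all arrays. Relative values were quantile normalized, so that the 6 arrays share 1 distribution and a difference says how a gene moved against all other genes. A gene is called where the adjusted p of limma's test, over all probe sets, was under 0.05. Before each log2, 32 was added to the linear signal, which shrinks the differences of dim genes.

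Mean linear signal was 345 ± 38.5 in EB and 154 ± 2.86 in ESC (SD, n = 3 each), and spike-in controls stood at a mean log2 signal of 9.72 in EB and 9.71 in ESC. The hybridisation controls were higher in EB, at 12.2 ± 0.445 log2 against 11.4 ± 0.279 in ESC. The 3' to 5' log2 ratio, a sign of RNA length, was 2.26 ± 0.224 in EB and 3.10 ± 0.287 in ESC for Actb, and 0.547 ± 0.189 in EB and 1.27 ± 0.185 in ESC for Gapdh. All 3 differences had an exact two-sided permutation p of 0.1, the smallest that 3 arrays against 3 can give. Arrays of a state correlated at 0.966 to 0.982 across genes and arrays of different states at 0.956 to 0.962. Part of any difference below may move with these array properties; their part was not tested.

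On the deposited scale 9721 of the 18193 genes were called higher in EB, which is 53.4% of all genes, and 40 were called lower, which is 0.220%. Relative to all genes 1107 genes were called higher, 6.08%, and 1060 lower, 5.83%. Every one of the 1107 was also called higher on the deposited scale, and all 40 genes lower on the deposited scale were also lower relative to all genes. Between these groups lay 768 genes called higher on the deposited scale and lower relative to all genes: their signal was larger in EB, but by less than the signal of other genes. The median gene differed by 0.70 log2 on the deposited scale and by -0.02 relative to all genes. The share of called genes that were higher was 99.6% with deposited signals and 51.1% with relative ones. This split depended on the scaling: 95.1% were higher with arrays scaled on the hybridisation controls, 85.3% after median centring and 86.6% with arrays brought to a common median before the offset, and the median of all genes lay at 0.21, 0.22 and 0.09 under these scalings. Without the trend of variance on level in limma's test the relative counts were 299 higher and 294 lower. Without EB replicate 1 the 1107 higher genes became 682, and without ESC replicate 2 the 40 lower genes became 25.

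**Figure D1:**
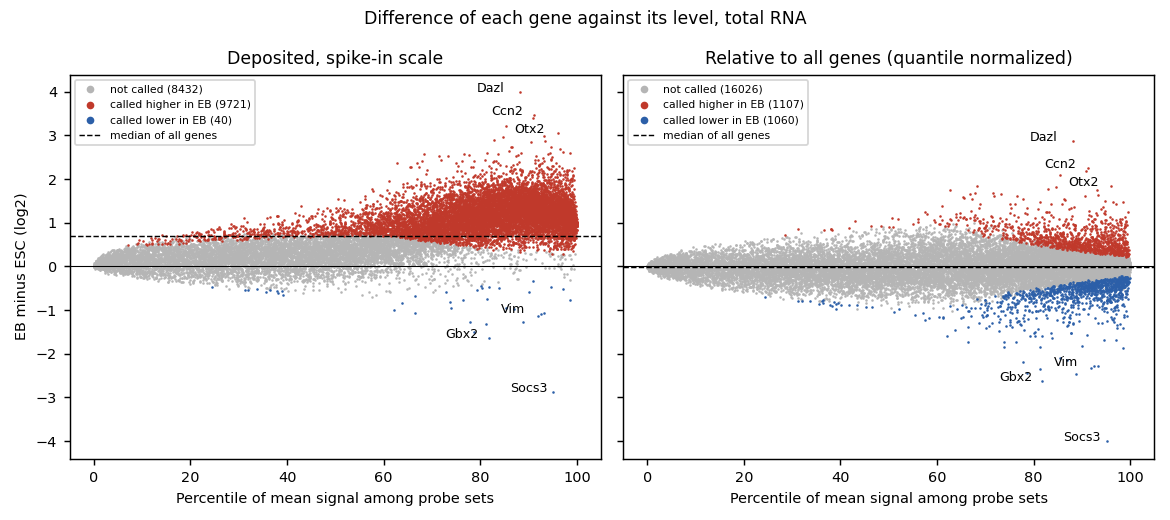
Difference EB minus ESC (log2) of 18193 genes against the percentile of their mean signal, on the deposited scale (left) and relative to all genes (right). Red points are genes called higher in EB, blue points genes called lower and grey points the rest; on the left 9721 genes are red and 40 blue, on the right 1107 and 1060, and the dashed line marks the median of all genes, 0.70 and -0.02.

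The size of the shift followed the level of the gene. With the genes divided into 10 bins of rising signal, the median difference on the deposited scale was 0.12 log2 in bin 1, 1.30 in bin 9 and 1.17 in bin 10. Relative to all genes the medians of the bins lay between -0.06 and 0.02. Relative calls were rare among dim genes, with 0 higher and 0 lower of 1820 genes in bin 1, against 373 higher and 389 lower of 1820 in bin 10. On the deposited scale 1.54% of genes were called higher in bin 1, 93.6% in bin 7 and 97.7% in bin 10. The counts of lists below are to be read beside these shares and those over all genes, 6.08% higher and 5.83% lower relative to all genes. A relative difference of 1 log2 or more was called for 139 genes in each direction.

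The 15 highest genes relative to all genes held several of the germline, and the 15 lowest several that LIF and FGF signalling are known to induce. Dazl, which binds mRNAs in germ cells, led the first group, with relative signals of 9.84, 9.87 and 9.59 log2 on the EB arrays against 6.95, 6.84 and 6.90 on the ESC arrays. Its EB and ESC arrays were far apart, and both of its probe sets were called higher. Porcn, the enzyme that adds a lipid to Wnt proteins, stood at 8.58, 8.50 and 8.67 in EB and 6.86, 6.71 and 6.89 in ESC, 1.76 ± 0.13 higher (SE, adjusted p = 1.6e-07). Further genes of the first group were Gpat2, a germ cell relative of the enzymes that begin triglyceride synthesis (1.74 ± 0.25), Slc16a6, a transporter of monocarboxylates (1.68 ± 0.24), Acp5, an acid phosphatase (1.68 ± 0.23), and Pygl, the liver form of glycogen phosphorylase (1.65 ± 0.21). On the deposited scale these 5 differed by 2.90, 2.37, 2.52, 2.42 and 2.52.

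Some genes fell on both scales, with a lower signal in EB although most signals were higher. Pcolce, which helps to trim procollagen, stood at 7.94, 7.82 and 7.85 log2 in EB and 10.17, 10.16 and 10.15 in ESC, relative to all genes; its difference was -2.29 ± 0.09 (adjusted p = 1.09e-10) and on the deposited scale -1.08 ± 0.12. Cltb, a light chain of clathrin, had differences of -1.84 ± 0.14 and -0.75 ± 0.16 on the 2 scales. Its 2 other probe sets were not called relative to all genes, and on the deposited scale they differed by 0.46 and 0.56. Tgm1, a protein-crosslinking transglutaminase, had differences of -1.83 ± 0.21 and -0.95 ± 0.23. Nme1, a nucleoside diphosphate kinase, had a deposited difference of -0.77 on the probe set used and of 0.81 on its other probe set. Relative to all genes the probe set used differed by -1.88 ± 0.14, but the other one by -0.36 and was not called. Probe sets of 1 gene often disagreed in this way: of 2391 further probe sets of called genes with enough signal, 581 were called in the same direction, 34 in the opposite one and 1776 not at all.

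**Figure D2:**
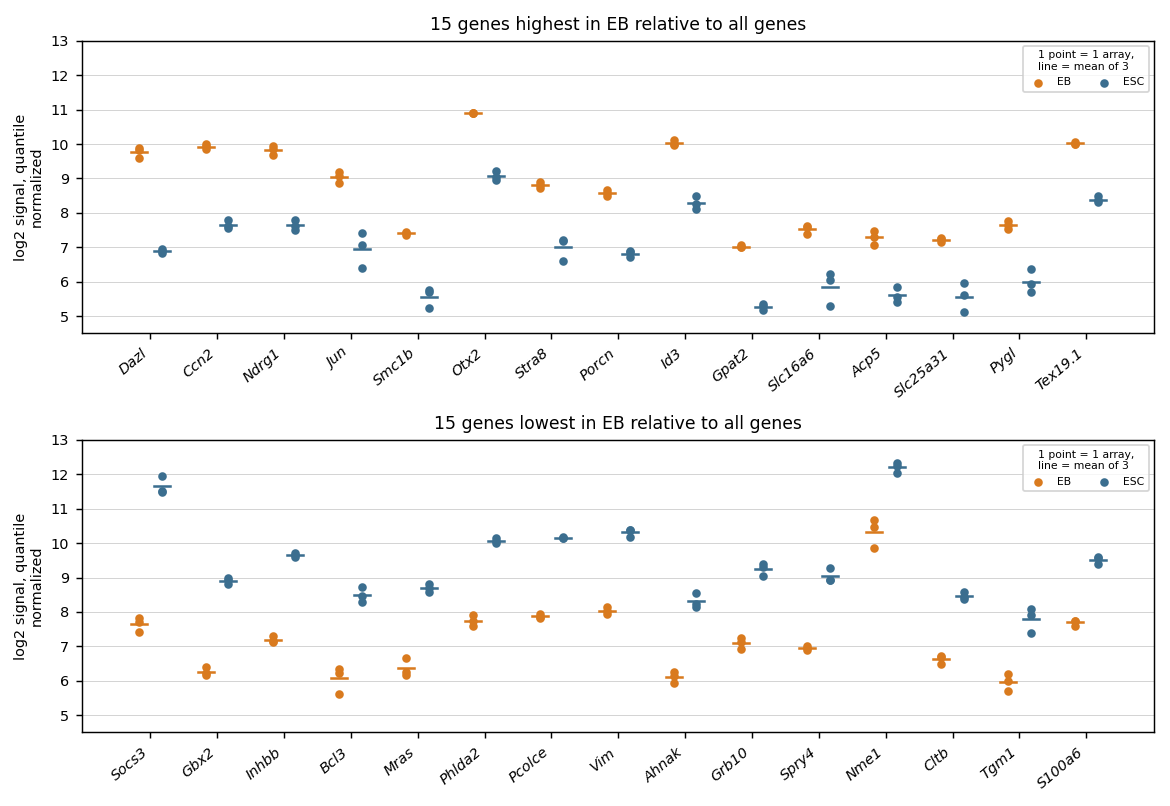
Quantile-normalized log2 signal on every array for the 15 genes highest and the 15 lowest in EB relative to all genes, EB (orange) left of ESC (blue), with 1 point per array and a line at the mean of 3. By the rule that chose them the states do not overlap in any of these genes; Socs3 has the widest gap, 7.42 to 7.82 in EB against 11.49 to 11.94 in ESC.

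Targets of LIF and STAT3 were among the genes that fell furthest. Of 25 measured LIF receptor and STAT3 target genes 13 were called lower and 4 higher relative to all genes, with a median of -0.42 against -0.02 for all genes. On the deposited scale 15 were higher and 5 lower, with a median of 0.75, and the relative median became 0.01 on the hybridisation controls and 0.28 after median centring. Socs3, the feedback inhibitor of the pathway, had relative signals of 7.82, 7.72 and 7.42 log2 in EB against 11.94, 11.53 and 11.49 in ESC. All 3 EB arrays lay far below the ESC arrays, and its 3 probe sets all fell, with relative differences of -3.999, -3.53 and -3.31. Bcl3, a cofactor of NF-kB that STAT3 induces, stood at 5.61, 6.24 and 6.35 in EB and 8.73, 8.47 and 8.30 in ESC, and Junb, an AP-1 subunit, had a relative difference of -1.65 ± 0.14 and a deposited one of -0.49 ± 0.16 (adjusted p = 0.0187) that was -0.34 without EB replicate 2 and -0.40 without ESC replicate 3, not called. Klf4, a naive pluripotency factor downstream of STAT3, stood at 9.64, 9.61 and 9.50 in EB and 11.33, 11.29 and 11.19 in ESC, and both of its probe sets fell. Its relative Klf5 fell by 1.22 relative to all genes, but its deposited difference was -0.01 ± 0.13.

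The promoter of Socs3 is shown because this gene had the lowest difference of all and STAT proteins bind the letters TTCNNNGAA. Capitals mark the single match, which begins at position -154 relative to the start of the gene, in the 300 bases of RefSeq's GRCm38.p6 promoter at chr11:117969317-117969616 on the minus strand:
Socs3: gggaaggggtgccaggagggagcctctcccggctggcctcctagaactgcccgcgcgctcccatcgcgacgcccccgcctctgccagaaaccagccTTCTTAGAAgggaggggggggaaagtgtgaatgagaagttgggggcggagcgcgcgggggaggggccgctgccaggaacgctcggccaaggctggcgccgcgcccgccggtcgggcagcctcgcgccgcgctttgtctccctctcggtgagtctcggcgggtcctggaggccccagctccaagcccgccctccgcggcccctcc

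Of 22 list members with a promoter 5 held the STAT letters on either strand, 22.7%. Among the 14452 array genes with a promoter the share was 8.57%. In the other lists searched the share with a match was highest for the aminoacyl-tRNA synthetases, at 3 of 15 promoters. It was lowest, at 0.0%, for the germline and actin lists. Such a match is a description of the sequence and was not tested as a binding site; Bcl3 and Klf4 had no match in this window.

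The naive pluripotency factors split. Of 20 measured, 8 were called lower and 3 higher relative to all genes, while 16 were higher and 2 lower on the deposited scale; their relative median of -0.22 became 0.09 on the hybridisation controls and 0.43 after median centring. Gbx2, a homeobox factor that replaces LIF when forced in ESC, had 6.23, 6.17 and 6.40 log2 in EB against 8.97, 8.80 and 8.92 in ESC, and with Klf4 it was lower on both scales. Prdm14, which protects the naive state and specifies germ cells, had 8.85, 8.83 and 8.93 in EB against 7.92, 7.53 and 7.71 in ESC. Esrrb, an orphan nuclear receptor, differed by -0.31 ± 0.07 relative to all genes, but by 0.06 on the hybridisation controls, 0.40 after median centring and 0.88 on the deposited scale. Its relative call was lost without EB replicate 1 (-0.31, adjusted p = 0.0577) and without ESC replicate 3 (-0.29, adjusted p = 0.0565).

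Among signalling pathways more FGF-ERK genes were lower than higher relative to all genes, and more Nodal genes higher than lower. Of 27 FGF-ERK ligands, receptors and feedback genes 9 were called lower and 1 higher, with a relative median of -0.10 that was 0.23 on the hybridisation controls and 0.45 after median centring; on the deposited scale 20 were higher and 2 lower. The feedback inhibitor Spry4 had 6.97, 7.001 and 6.89 log2 in EB against 9.27, 8.94 and 8.93 in ESC, and fell on both scales, though over the mean of its probe sets the deposited difference was -0.41 and not called. Etv4, an ETS factor induced by ERK, had 6.72, 6.75 and 6.89 in EB and 8.34, 8.36 and 8.47 in ESC, with differences of -1.60 ± 0.14 relative to all genes and -0.48 ± 0.15 on the deposited scale; the deposited difference was not called without ESC replicate 2 (-0.46) or 3 (-0.46), nor over the mean of its probe sets (-0.13). The ligand Fgf17 fell by 1.33 relative to all genes. Its deposited difference of -0.30 was not called, but that over the mean of its probe sets was (-0.47). Dusp4, an ERK phosphatase, went the other way, with 7.83, 7.97 and 8.12 in EB against 6.74, 6.16 and 6.39 in ESC. Mras, a Ras-like GTPase that was on no list, fell by 2.34 relative to all genes and fell by 1.32 on the deposited scale.

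Of 20 Nodal and activin genes 4 were called higher and 2 lower relative to all genes, with a median of 0.15. Lefty2, a secreted inhibitor that Nodal itself induces, had 9.45, 9.44 and 9.61 log2 in EB against 7.94, 7.84 and 7.88 in ESC, and its neighbour Lefty1 rose by 0.90 ± 0.10. Nodal, the ligand, rose by 0.76 ± 0.10, but its second probe set (0.36) was not called. Inhbb, which encodes the beta B subunit of activin, fell: 7.15, 7.12 and 7.31 in EB against 9.64, 9.61 and 9.70 in ESC. In the BMP list 3 of 25 were higher and 3 lower relative to all genes, with a median of 0.12. The ligand Bmp4 had 7.91, 7.88 and 8.11 in EB against 9.49, 9.51 and 9.63 in ESC and was lower on both scales (-1.58 ± 0.10 and -0.33 ± 0.12), the deposited call being lost when EB replicate 1 or 2 or any ESC array was left out (-0.23 to -0.37), while Id3, a target of BMP signalling, averaged 10.03 ± 0.07 in EB against 8.29 ± 0.19 in ESC (SD, n = 3 each). Of 33 Wnt genes only Lef1, a nuclear effector, was called higher relative to all genes (1.42 ± 0.22), though its second probe set (0.32) was not. In that list 3 were lower relative to all genes, while 17 were higher and 0 lower on the deposited scale. The lower ones were led by the receptor Fzd5 (-1.18 ± 0.10), whose deposited difference was 0.08 and not called.

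Among germline genes every call relative to all genes was a higher one. Of 30 measured, 13 were called higher relative to all genes and 0 lower, with a median of 0.50 against -0.02 for all genes, and 22 were higher on the deposited scale; the 8 others were not called there. The median was 0.90 on the hybridisation controls and 1.07 after median centring, where the medians of all genes were 0.21 and 0.22, and 2 members were called lower after median centring. At an unadjusted p under 0.05 limma's test gave 0 lower members on either scale. Stra8, which lets germ cells enter meiosis, had 8.89, 8.74 and 8.80 log2 in EB against 6.60, 7.21 and 7.19 in ESC. Smc1b, the cohesin subunit of meiotic chromosomes, had 7.42, 7.44 and 7.37 in EB and 5.76, 5.70 and 5.24 in ESC, 1.84 ± 0.23 higher (adjusted p = 3.64e-05). Slc25a31, the ADP/ATP carrier of germ cell mitochondria, had 7.15, 7.23 and 7.26 in EB and 5.95, 5.61 and 5.12 in ESC. Tex19.1, which restrains transposons in germ cells, had 10.06, 10.002 and 10.01 in EB and 8.32, 8.36 and 8.48 in ESC. Tfap2c, a primordial germ cell factor that stands on the trophoblast list, rose by 1.17 ± 0.11. In bulk RNA a change in the number of cells that express a gene cannot be told apart from a change of its RNA per cell.

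The Slc25a31 promoter is shown as one of the germline promoters that hold an E-box, the letters CACGTG, marked in capitals at position -93 (RefSeq, GRCm38.p6, chr3:40708621-40708920, plus strand):
Slc25a31: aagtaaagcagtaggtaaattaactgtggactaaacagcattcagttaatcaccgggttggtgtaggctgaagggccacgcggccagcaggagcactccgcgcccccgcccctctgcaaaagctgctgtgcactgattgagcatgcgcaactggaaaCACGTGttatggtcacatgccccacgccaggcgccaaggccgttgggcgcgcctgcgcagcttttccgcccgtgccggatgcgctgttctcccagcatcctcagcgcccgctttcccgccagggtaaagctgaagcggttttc

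Of 25 germline genes with a promoter 12 held this E-box, 48.0%, against 10.2% of all array genes with a promoter. In the other lists searched the share ran from 6.25% (serine and one-carbon) to 34.4% (lysosome and autophagy). The E-box was looked for after the germline values had been seen. The promoters of Dazl, Stra8, Smc1b and Tex19.1 held none in the window.

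Imprinted genes, expressed from 1 parental copy, included several of the lowest differences. Of 28 measured 6 were called lower and 2 higher relative to all genes, and on the deposited scale 3 were lower and 12 higher; the medians were -0.13 and 0.35. Phlda2, a growth-restricting gene of the placenta, had 7.73, 7.90 and 7.58 log2 in EB against 9.99, 10.15 and 10.07 in ESC. Grb10, an adaptor that dampens insulin signalling, had 7.24, 6.94 and 7.12 in EB and 9.30, 9.39 and 9.04 in ESC on the probe set used, while its 2 dimmer probe sets were not called. The growth factor gene Igf2 had 6.45, 6.35 and 5.89 in EB and 8.28, 8.12 and 7.46 in ESC. These 3 fell on both scales, but on the deposited scale Igf2 was not called without EB replicate 3 (-0.56), ESC replicate 1 (-0.62) or ESC replicate 2 (-0.66). Over the mean of their probe sets Grb10 and Igf2 had deposited differences of -0.19 and -0.30, not called. Cdkn1c, a cell cycle inhibitor, fell by 1.35 relative to all genes, and its deposited difference of -0.32 was not called.

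The summed signal of the markers of the ESC state went opposite ways on the 2 scales. The summed deposited linear signal of 8 ESC markers was 35483 to 43227 on the EB arrays against 20348 to 21722 on the ESC arrays, and the summed relative signal was 27116 to 27408 in EB against 29445 to 30198 in ESC. Of these 8, 7 were higher and 1, Klf4, was lower on the deposited scale, and 1 was higher and 4 lower relative to all genes. The 1 higher was Nanog, with a relative difference of 0.54 ± 0.07, a deposited one of 1.64 and 1.17 after median centring. Sox2 differed by 0.03 relative to all genes and was not called. Zfp42 and Tdgf1, both used as markers of undifferentiated cells, differed by -0.04 and -0.17 relative to all genes and were not called. The fall of Pou5f1 relative to all genes, with a difference of -0.28 ± 0.07, turned to 0.32 after median centring, and that of Fgf4, -0.66 ± 0.10, to 0.12; the relative call of Pou5f1 was also lost without EB replicate 1 or any 1 of the ESC arrays, with differences of -0.25 to -0.30. Of 4 early epiblast markers Otx2 alone was higher relative to all genes, with 10.91, 10.89 and 10.91 log2 in EB against 9.03, 9.21 and 8.95 in ESC. The rest, Fgf5, Pou3f1 and Dnmt3b, fell by 0.84, 0.99 and 0.54 relative to all genes, with deposited differences of 0.21, 0.09 and 0.65. After median centring these genes lay at -0.26, -0.38 and 0.18, and none was called. With arrays brought to a common median before the offset only Pou3f1 of them was called (-0.74). Dnmt3b was also not called without ESC replicate 1 (-0.45).

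Of 5 endoderm markers Dab2 and Gata6 were called higher relative to all genes. The summed deposited signal of all 5 was 512 to 522 in EB and 57.4 to 90.6 in ESC, and the relative one 310 to 367 in EB and 73.4 to 142 in ESC. Dab2, an endocytic adaptor of primitive and visceral endoderm, had 7.28, 7.74 and 7.55 log2 in EB against 6.05, 6.03 and 5.67 in ESC, and Gata6, a founding factor of that lineage, rose by 0.84 ± 0.23 (adjusted p = 0.0298), a call that was lost when any 1 of the 6 arrays was left out (0.67 to 0.90, adjusted p = 0.0541 to 0.21). Sox17 lay 0.85 ± 0.28 higher relative to all genes and was not called, but was called on the deposited scale (1.37, adjusted p = 0.000264), and Gata4 and Foxa2 differed by 0.08 and 0.34 relative to all genes and were called on neither scale. Of 29 genes of primitive, visceral and parietal endoderm 5 were higher and 1 lower relative to all genes, among them Ttr, the carrier of thyroid hormone (1.53 ± 0.30). Of the streak and mesoderm markers Eomes rose by 0.73 ± 0.18, though without EB replicate 2 its difference of 0.56 was not called, Mixl1, Mesp1 and Kdr were not called on either scale, and Mixl1 and Kdr were among the 40% of probe sets with the lowest signal. The wider list of 15 streak and mesoderm genes had 1 higher and 0 lower, and 8 of the 15 were in that lowest part; none of 26 Hox genes was called relative to all genes by limma, with 15 of them in the lowest part. At an unadjusted p under 0.05 limma gave 2 lower streak genes, 2 lower and 0 higher Hox genes and 1 higher neural gene. The neural list had 0 higher and 3 lower of 18 relative to all genes, and 6 higher and 0 lower on the deposited scale, the neuronal genes Stmn2 and Neurod1 falling by 1.27 and 1.18 relative to all genes, with deposited differences of -0.06 and -0.17 that were not called. The neural markers Tubb3, a neuronal tubulin, and Pax6, a homeobox factor, were called higher on the deposited scale (1.26 and 1.04) and not relative to all genes (0.03 and 0.47). The summed deposited signal of the 4 neural markers was 380.5 to 556 in EB against 201 to 267 in ESC, and the relative one 274 to 328 in EB against 338 to 417 in ESC.

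Cells other than ESC and EB were looked for by their markers. None of 6 markers of feeder fibroblasts was called on either scale, their summed signal was 168 to 204 in EB against 92.4 to 157 in ESC on the deposited scale and 111 to 135 in EB against 152 to 267 in ESC as relative signal, and Col1a1, Col3a1, Dcn and Postn were among the dimmest 40%. None of 4 blood markers was called on either scale, with deposited sums of 78.4 to 156 in EB and 56.9 to 121 in ESC and relative sums of 50.7 to 104 in EB and 98.5 to 173 in ESC. None of 4 trophoblast markers was called, with deposited sums of 49.0 to 124 in EB and 46.5 to 49.7 in ESC and relative sums of 41.0 to 81.9 in EB and 64.2 to 80.7 in ESC. At an unadjusted p under 0.05 limma's relative test gave 1 lower fibroblast marker and 1 lower blood marker, and the deposited test gave 0 of these 14. In the wider lists 2 of 19 blood genes were higher, the macrophage gene Cd68 (1.14 ± 0.19) and the endothelial gene Pecam1 (1.04 ± 0.23, and 0.93, not called, without EB replicate 2), of which Pecam1 is also expressed by mouse ESC, and 1 was lower. The fibroblast list had 0 higher and 1 lower of 19. Of 18 trophoblast genes 1 was higher, Tfap2c (1.17 ± 0.11), and 3 were lower. Among the lower ones Krt8, a keratin of simple epithelium, lay at -1.52 ± 0.11 relative to all genes and -0.30 ± 0.13, not called, on the deposited scale. Of 10 genes typical of cells like those of the early cleavage embryo only Usp17la was called relative to all genes, higher by 1.25 ± 0.15, and 3 were called higher on the deposited scale.

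**Figure D3:**
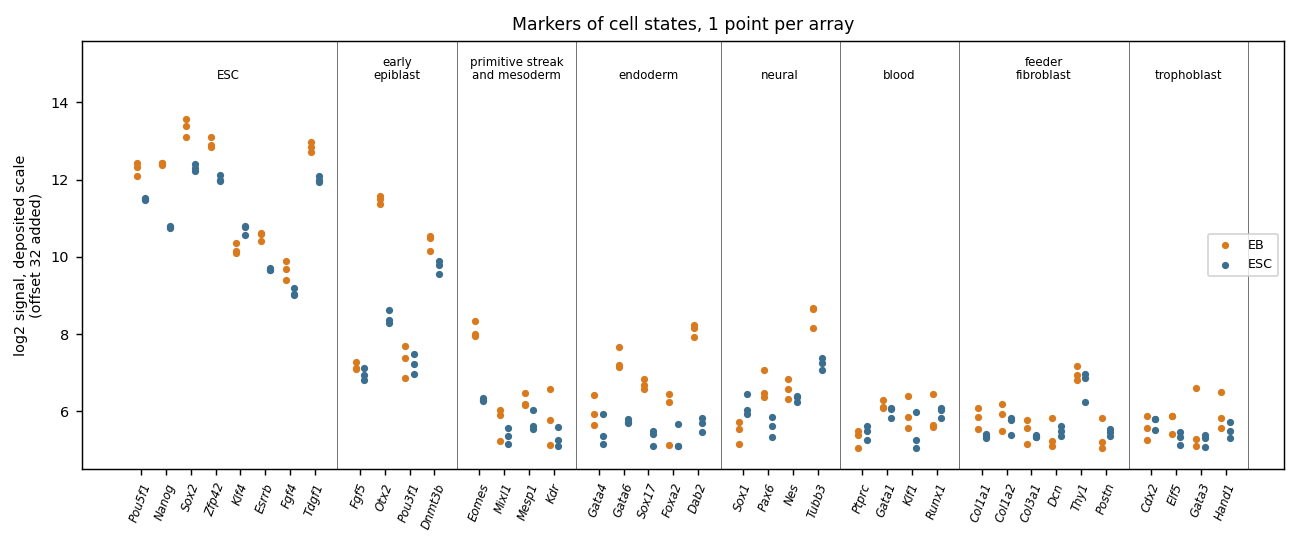
Deposited log2 signal, after adding 32, of the markers of 8 cell states, with 1 point per array and EB (orange) left of ESC (blue). Signals of different markers cannot be set against each other. Among markers of later states Otx2, Dnmt3b, Eomes, Dab2, Gata6, Sox17, Tubb3 and Pax6 were called higher in EB on this scale, and no blood, fibroblast or trophoblast marker was called.

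Among genes that cells induce at low oxygen more were called higher than lower. Of 36 hypoxia-inducible genes outside glycolysis 14 were called higher and 2 lower relative to all genes, with a median of 0.25 against -0.02 for all genes. The median was 0.58 on the hybridisation controls and 0.83 after median centring, where those of all genes were 0.21 and 0.22. Ndrg1, a gene of growth arrest and low oxygen, had 9.93, 9.69 and 9.86 log2 in EB against 7.51, 7.79 and 7.63 in ESC, and its 5 probe sets were all called higher. Bnip3, which sends mitochondria to autophagy and was named outside the rule given below, had 11.21, 11.21 and 10.95 in EB and 10.23, 10.06 and 10.22 in ESC. Ak4, an adenylate kinase of mitochondria, rose by 1.05 ± 0.10, and Anxa2, a membrane-binding annexin that also stands on the actin list, by 1.37 ± 0.09. Higd2a, which helps to assemble respiratory complexes, fell by 1.29 relative to all genes, with a deposited difference of -0.04.

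Hypoxia-inducible factors bind the letters ACGTG, and the promoters of Bnip3 and of Ero1a, an oxidase of the endoplasmic reticulum that rose by 0.91 ± 0.12 and was named after its value was seen, are shown for that reason. Capitals mark the letters on either strand. In Bnip3 (chr7:138909457-138909756, minus strand) the matches on both strands, at -108 and -107, overlap to the E-box CACGTG, and in Ero1a (chr14:45318523-45318822, minus strand) 1 match on the other strand begins at -63. Both are from RefSeq's GRCm38.p6 table:
Bnip3: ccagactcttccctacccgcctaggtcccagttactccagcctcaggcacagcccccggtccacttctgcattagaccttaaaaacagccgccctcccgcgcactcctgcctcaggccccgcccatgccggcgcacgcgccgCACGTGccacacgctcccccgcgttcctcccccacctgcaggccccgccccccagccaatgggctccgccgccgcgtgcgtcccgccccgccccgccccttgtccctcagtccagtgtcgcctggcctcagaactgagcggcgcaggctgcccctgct
Ero1a: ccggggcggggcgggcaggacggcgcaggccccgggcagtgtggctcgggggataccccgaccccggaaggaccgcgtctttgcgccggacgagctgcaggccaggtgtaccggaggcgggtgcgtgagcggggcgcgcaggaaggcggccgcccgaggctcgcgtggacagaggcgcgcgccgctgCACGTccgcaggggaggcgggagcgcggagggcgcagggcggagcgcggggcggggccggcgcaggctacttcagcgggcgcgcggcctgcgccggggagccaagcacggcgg

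Of 29 members with a promoter 19 held these letters, 65.5%, against 26.1% of all array genes with a promoter. The letters lie inside the E-box searched above, so that counts of the motifs overlap.

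Immediate-early genes respond to stimuli within minutes, and more of them were called higher than lower. Of 32, 12 were higher and 4 lower relative to all genes, and 24 were higher and 1 lower on the deposited scale, with a relative median of 0.25 that was 0.65 on the hybridisation controls and 0.84 after median centring. Jun had 9.06, 9.20 and 8.87 log2 in EB against 7.41, 7.06 and 6.39 in ESC, while Junb, of the same family, fell. The second probe set of Jun differed by 0.70 and was not called. Dusp1, a phosphatase of stress kinases, had 9.96, 10.09 and 10.27 in EB and 8.82, 8.82 and 9.04 in ESC, and the growth arrest gene Gadd45g rose by 1.43 ± 0.17. Both states had been in cycloheximide, whose own effect on such short-lived mRNAs cannot be told apart here because no array lacked it. Of 24 YAP-TEAD genes 5 were higher and 1 lower, led by the matricellular genes Ccn2 (9.85, 9.99 and 9.93 in EB, 7.57, 7.63 and 7.79 in ESC) and Ccn1 (0.92 ± 0.14).

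Many lysosome and autophagy genes rose relative to all genes, and one of their regulators fell. Of 37 measured 15 were called higher and 2 lower relative to all genes, with a median of 0.24 that was 0.75 on the hybridisation controls and 1.05 after median centring. Sqstm1, the autophagy receptor p62, had 10.19, 10.12 and 10.33 log2 in EB and 9.27, 9.24 and 9.22 in ESC. Gabarapl2, of the family that coats autophagosomes, rose by 0.88 ± 0.07. Tfeb, a transcription factor of lysosomal genes, had 6.23, 5.38 and 6.07 in EB against 7.13, 7.40 and 7.39 in ESC; its deposited difference of -0.58 ± 0.28 was not called. The CLEAR motif, to which that factor binds, was in 6 of 32 promoters of the list, 18.8%, against 1.63% of all array genes with a promoter. In the other lists searched the share ran from 0.0% (germline and others) to 13.3% (aminoacyl-tRNA synthetases). Among other lists of protein handling, the endoplasmic reticulum chaperones had 7 higher and 1 lower of 26, led by Dnajb9 (0.59 ± 0.12) and Hspa5, also called BiP (0.57 ± 0.07). The cytosolic heat-shock proteins had 4 higher and 5 lower of 23, the proteasome subunits 6 higher and 4 lower of 34, and the coat and ER-Golgi transport genes 3 higher and 5 lower of 31.

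Many genes of the actin cytoskeleton were called lower relative to all genes. Of 34 genes of the actin cytoskeleton and targets of its regulator SRF 19 were called lower and 2 higher relative to all genes, with a median of -0.54 that was -0.16 on the hybridisation controls and 0.14 after median centring, where the median of all genes was 0.22. On the deposited scale 23 were higher and 2 lower, with a median of 0.61 against 0.70 for all genes. Ahnak, a giant scaffold protein under the membrane, had 6.15, 5.93 and 6.26 log2 in EB against 8.15, 8.55 and 8.23 in ESC, on the only one of its 4 probe sets above the dimmest 40%. S100a6, a small calcium-binding protein, had 7.74, 7.75 and 7.60 in EB and 9.39, 9.58 and 9.56 in ESC. Both fell on the 2 scales; over the mean of its probe sets Ahnak had differences of -0.44 relative to all genes and -0.053 with deposited signals, neither called. Tmsb4x, which binds actin monomers, fell by 1.41 relative to all genes and the tropomyosin gene Tpm2 by 1.37, with deposited differences of -0.30 and -0.15 that were not called. The deposited difference of Tmsb4x was called with the replicate block or the filter on dim probe sets (-0.30). It was also called without EB replicate 1 (-0.38) and on the hybridisation controls (-1.13). The exceptions to the relative fall were Anxa2 and the cytoplasmic actin gene Actg1, which was named after its value was seen and rose by 1.24 ± 0.06. Vim, the intermediate filament vimentin of the adhesion and cytoskeleton list, had 8.13, 8.02 and 7.94 in EB and 10.38, 10.37 and 10.18 in ESC, and its 3 probe sets all fell on both scales. In that list 6 of 31 were lower and 2 higher relative to all genes, and 1 was lower and 21 higher on the deposited scale.

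**Figure D4:**
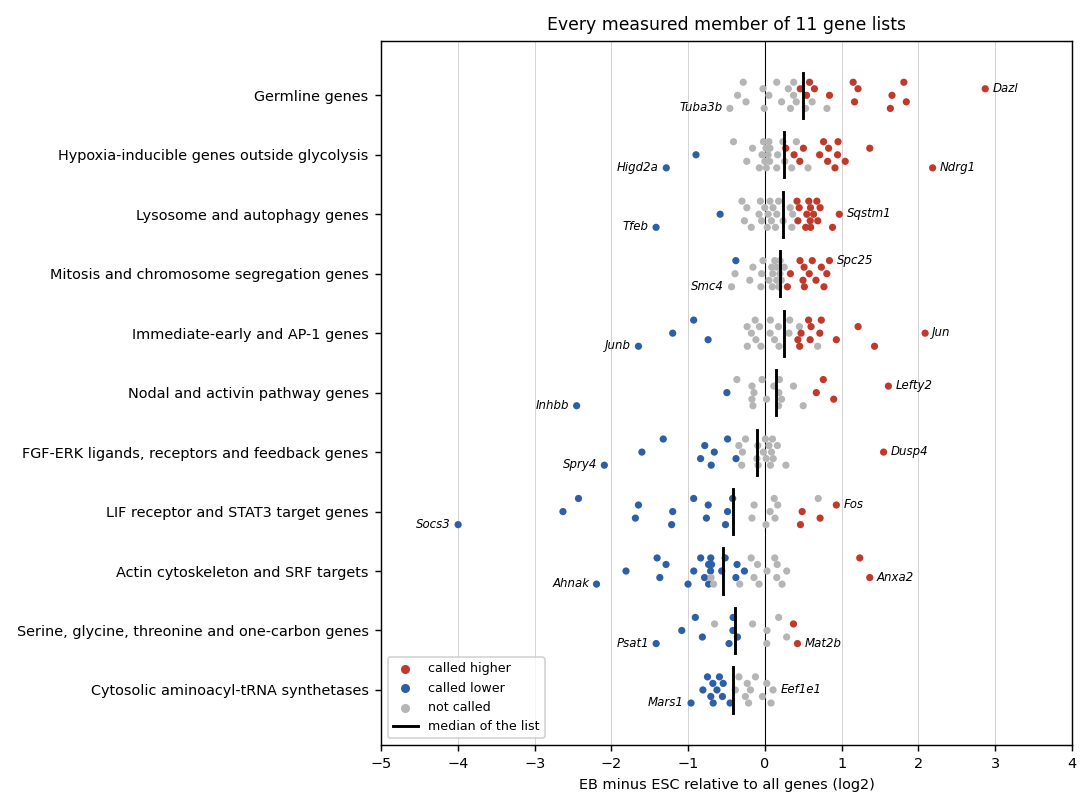
Difference EB minus ESC relative to all genes (log2) of every measured member of 11 lists, with called members in red (higher) and blue (lower), grey for the rest and a black bar at the list's median. Medians run from 0.50 in the germline list to -0.54 in the actin list. After median centring all 11 medians are above 0, at 0.14 for actin and 0.33 for the tRNA synthetases, where that of all genes is 0.22.

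Among genes that make amino acids, load them onto tRNA and build nucleotides, more were called lower than higher relative to all genes, while no member was called lower in deposited signal. None of 22 cytosolic aminoacyl-tRNA synthetases was higher by limma's relative test and 11 were lower, with a median of -0.42; on the deposited scale 21 were higher and 0 lower, with a median of 0.80. The relative median was 0.00 on the hybridisation controls and 0.33 after median centring, where the medians of all genes were 0.21 and 0.22. Against all genes the list thus lay lower on the hybridisation controls and higher after median centring. Median centring does not remove the larger shift of brighter genes. At an unadjusted p under 0.05 limma gave 0 higher synthetases relative to all genes. Mars1, the methionine enzyme, had 9.79, 9.58 and 9.96 log2 in EB against 10.62, 10.77 and 10.83 in ESC, a relative difference of -0.96 ± 0.09 and a deposited one of 0.22 ± 0.13. Tars, for threonine, differed by -0.81 and Nars, for asparagine, by -0.75, with 0.40 and 0.45 on the deposited scale, calls that were lost without EB replicate 3 for Tars (0.32) and without ESC replicate 3 for Nars (0.37). Of 16 genes of serine, glycine and one-carbon metabolism 8 were lower and 2 higher relative to all genes, and 12 were higher on the deposited scale; the relative median of -0.39 was 0.10 on the hybridisation controls and 0.39 after median centring. The enzymes of the serine pathway led them. Psat1, its transaminase, had 9.86, 9.92 and 9.66 in EB against 11.29, 11.31 and 11.10 in ESC, and Phgdh, its first enzyme, and Psph, its last, differed by -0.91 ± 0.08 and -1.08 ± 0.12. None of Psat1, Phgdh and Psph was called on the deposited scale (-0.24, 0.29 and 0.17). Phgdh was called higher there with the replicate block (0.29), over the mean of its probe sets (0.47) and without EB replicate 2 (0.37). Psph was called higher without EB replicate 2 (0.34), and Psat1 lower on the hybridisation controls (-1.06). Of 23 purine and pyrimidine genes 12 were lower and 4 higher relative to all genes, and 22 were higher on the deposited scale; the relative median of -0.28 was 0.16 on the hybridisation controls and 0.49 after median centring. Aprt, which salvages adenine, had 10.08, 10.16 and 10.12 in EB and 11.07, 11.16 and 11.10 in ESC.

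Carbon metabolism outside glycolysis was mixed. Of 22 genes of the tricarboxylic acid cycle and pyruvate entry 9 were lower and 1 higher relative to all genes. All 22 were higher on the deposited scale, as were 93.6% to 98.7% of genes in the signal bins 7 to 10. The relative median of -0.09 became 0.22 on the hybridisation controls and 0.51 after median centring. The 1 called higher relative to all genes was Mpc1, a subunit of the pyruvate carrier of mitochondria (0.74 ± 0.15). In fatty acid synthesis 4 of 15 were higher and 4 lower relative to all genes, and 11 were higher and 0 lower on the deposited scale. Scd2, a desaturase, had 9.44, 9.55 and 9.33 log2 in EB against 10.62, 10.66 and 10.63 in ESC, and Scd1 fell by 1.00. Their deposited differences were 0.01 and 0.21. The other probe sets of Scd2 (-0.21 and 0.14) and Scd1 (-0.33) were not called relative to all genes. Over the mean of their probe sets Scd2 and Scd1 were called higher on the deposited scale (0.44 and 0.41). Me1, which supplies NADPH for synthesis, had 9.09, 8.60 and 9.11 in EB against 7.75, 7.33 and 7.72 in ESC, and the elongase Elovl6 rose by 1.09 ± 0.11. In fatty acid oxidation 2 of 18 were higher and 2 lower, with the carnitine carrier gene Slc25a20 up by 1.26 ± 0.11. Cholesterol synthesis had 3 higher and 5 lower of 22, the pentose phosphate pathway 0 and 2 of 6, glutathione and NRF2 targets 4 and 3 of 19, transporters of glucose and amino acids 6 and 4 of 22, and mitochondrial protein import 3 and 6 of 25. Gpx4, the peroxidase that removes lipid peroxides, had 12.94, 12.81 and 13.07 in EB and 12.03, 11.78 and 12.18 in ESC.

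Among genes of mitosis more were called higher than lower. Of 33 genes of mitosis and chromosome segregation 13 were called higher and 1 lower relative to all genes, 39.4% and 3.03%. Over all genes the shares were 6.08% and 5.83%. All 33 were higher on the deposited scale, as were 93.6% to 98.7% of genes in the signal bins 7 to 10. The relative median of 0.20 was 0.64 on the hybridisation controls and 0.95 after median centring. Spc25, a subunit of the kinetochore, had 10.36, 10.31 and 10.45 log2 in EB and 9.66, 9.49 and 9.45 in ESC, and Kif23, a motor of cell division, rose by 0.77 ± 0.12. Replication licensing had 8 higher and 3 lower of 33, G1 cyclins and inhibitors 1 and 4 of 26, p53 and its targets 4 and 2 of 22, and homologous recombination 2 and 4 of 25. Of 38 splicing factors 10 were higher and 2 lower, led by Esrp1, a splicing regulator of epithelial cells (0.68 ± 0.12), and Rbm39 (0.66 ± 0.07). Ribosome biogenesis had 7 higher and 2 lower of 38; there Nop10, a part of the particles that modify ribosomal RNA, fell by 1.02 relative to all genes, with a deposited difference of 0.02. Taf1d, a subunit of the RNA polymerase I initiation factor, had 11.20, 10.88 and 11.21 in EB and 9.73, 9.69 and 9.58 in ESC on its brightest probe set, but 2 of its 7 probe sets were called lower and their mean differed by 0.18, not called.

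Among chromatin genes, Polycomb subunits had 6 higher and 2 lower of 28. The BAF and NuRD remodellers had 2 higher and 6 lower of 28 relative to all genes, against 25 and 0 on the deposited scale and 22 and 1 after median centring, and their relative median of -0.21 became 0.24 on the hybridisation controls. Mta3, a NuRD subunit, rose by 1.08 ± 0.10, and Smarcd3, a BAF subunit, had 5.91, 5.76 and 6.21 log2 in EB and 7.09, 7.15 and 7.72 in ESC, with a deposited difference of -0.54 that was not called. DNA methylation genes had 2 higher and 2 lower of 17, with Dnmt3a up by 0.97 ± 0.10 beside the lower relative level of Dnmt3b. Nuclear pore genes had 4 higher and 5 lower of 25. In the microRNA pathway 0 of 20 were higher and 3 lower relative to all genes, against 18 higher and 0 lower on the deposited scale and 14 and 0 after median centring; Lin28a, which blocks the maturation of let-7, fell by 0.82 relative to all genes and rose by 0.40 on the deposited scale. Where no member was called lower on the deposited scale, limma at an unadjusted p under 0.05 gave 1 lower member in the neural list, 1 in the remodeller list and 0 in the Wnt, fatty acid synthesis, serine, nucleotide, synthetase and microRNA lists. In the interferon and antigen presentation list 1 of 27 was higher and 5 lower relative to all genes: the transcription factor Irf1 had 9.33, 9.24 and 9.50 in EB and 8.14, 8.13 and 8.52 in ESC, and the membrane protein Ifitm3 fell by 1.00, with a deposited difference of 0.20.

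**Figure D5:**
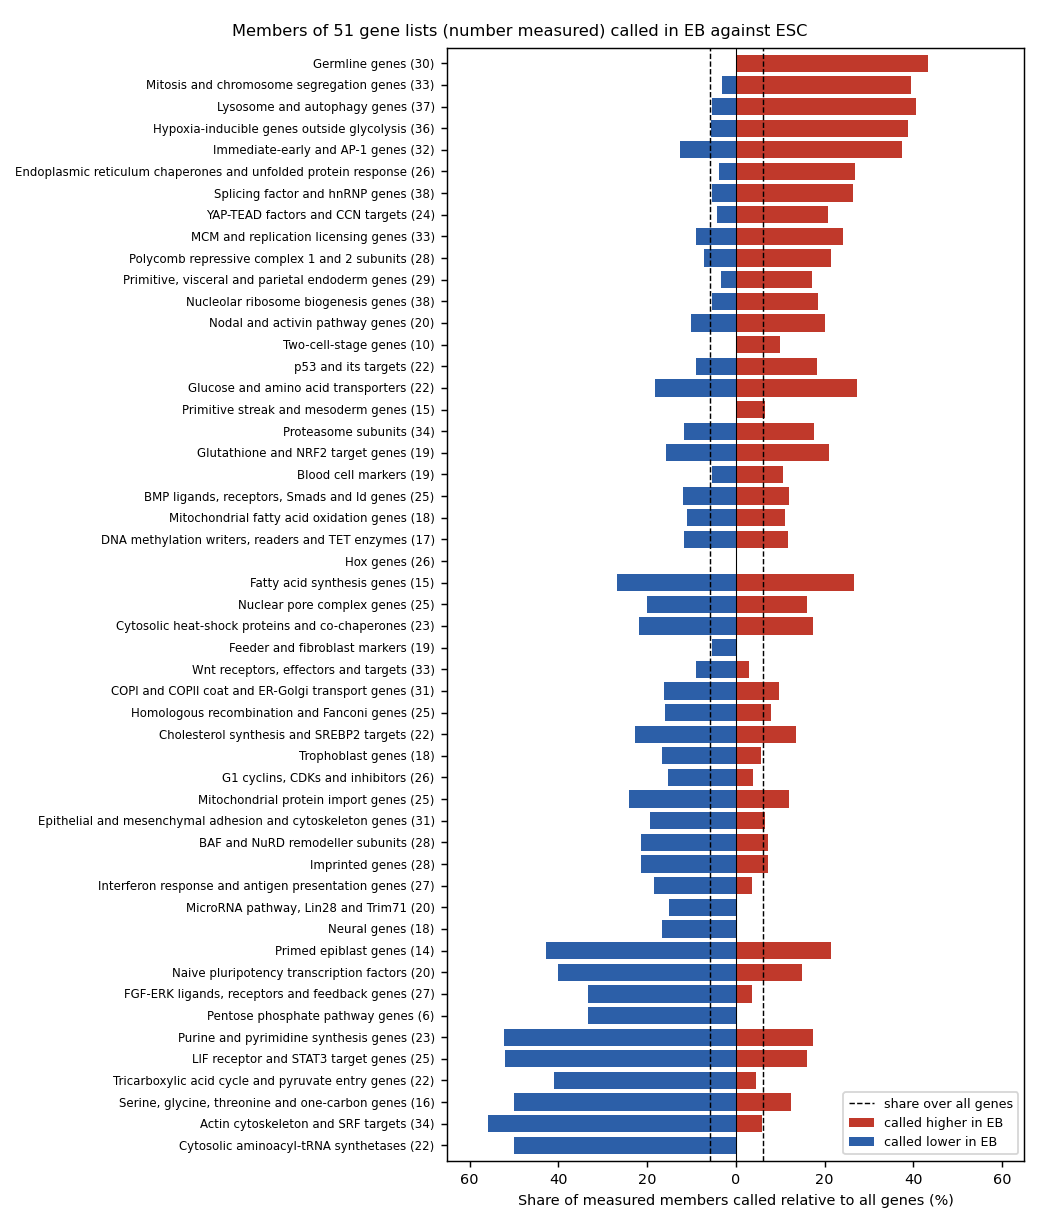
Share of the measured members of 51 gene lists that were called higher (red, right) or lower (blue, left) in EB relative to all genes, in %, with the number measured in brackets and dashed lines at the shares over all genes, 6.08% and 5.83%. Calls were more frequent in bright genes, with 373 higher and 389 lower of 1820 genes in the brightest of 10 bins. For lists of bright genes the dashed lines thus lie below the share at their level. Germline, mitosis, lysosome, hypoxia and immediate-early genes stand at the top and actin and tRNA synthetase genes at the foot; on the deposited scale 21 of the 22 synthetases and 23 of the 34 actin genes were called higher.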

How the data were processed

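Per the labels' protocols, biotin-labelled cRNA was made from 2.5 ug of RNA and measured on Affymetrix mouse arrays; the submitters' processing notes name MAS5 and affy, with no versions or roles. The deposited values are log2 signals, 1 column per array; the authors' scaling step is not given in the sources used here, and the values show spike-in controls at 1 level on all arrays. Per the labels the RNA protocol describes gradient pools, and how total RNA was drawn is not given.

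The 6 arrays of total RNA (3 EB, 3 ESC) were unlogged, offset by 32 and logged again; quantile normalization of the result gave the relative values. Differences EB minus ESC were fitted with limma 3.58.1 (R 4.3.3; lmFit, eBayes with trend, two-sided) over 45037 probe sets, Benjamini-Hochberg adjusted, threshold 0.05. Single values per array were compared by exact permutation. The number of arrays limits the precision. Each limma p-value tests the difference EB minus ESC against the variation among these arrays, moderated over all probe sets. How the replicate cultures differed is not given, so what this variation covers is not known. The fit was tested on simulated data.

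Of the probe sets 34945 had 1 symbol in the array's annotation, 932 several and 9160 none; the brightest probe set with 1 symbol stands for a gene. Of 1302 symbols on 51 lists 1210 were measured. Genes were named by rule: the 15 highest and 15 lowest called genes without overlap, above the dimmest 40%; the 10 lowest on the deposited scale; up to 4 called members per list; and all state markers. Bnip3, Ero1a and Actg1 were named outside this rule. The members and lists were chosen with earlier results of these data known.

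Promoters are RefSeq's 300 bases in GRCm38.p6; the letters searched, on both strands, were TTCNNNGAA, ACGTG, the CRE, the CArG box, the CLEAR motif and, added later, CACGTG; genes on chromosome 18 were not used here. Alternatives were other offsets, a filter on dim probe sets, no trend, a replicate block, the mean of a gene's probe sets, a stricter threshold, other scalings and each array left out.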

Additional observations from a re-analysis of the deposited data

How the results depend on the processing

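On the deposited scale the 9721 higher genes became 1054 with arrays scaled on the hybridisation controls, and the 40 lower ones became 20 at a threshold of 0.01; with 1 array left out the lower count ran from 25 to 38. Relative to all genes, 1107 higher and 1060 lower genes became 299 and 294 without the trend and 632 and 664 at a threshold of 0.01. With arrays scaled to a common median before the offset they were 2280 and 352, and median centring gave 6944 higher. With 1 array left out the higher count ran from 682 to 885. Other offsets, a filter on dim probe sets and the mean of a gene's probe sets kept these counts within 1.5 times. Deviations of same-numbered EB and ESC arrays correlated at 0.020, 0.012 and 0.027, and those of differently numbered arrays at -0.023 to 0.0042. All these correlations were weak, and whether the replicate numbers pair the samples was not tested. The replicate block gave 9733 higher and 36 lower genes on the deposited scale, and 1190 and 1151 relative to all genes.

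Among the named genes the direction turned for Cltb (0.091), Nme1 (0.021) and Stmn2 (0.27) on the deposited scale over the mean of all probe sets. On the hybridisation controls it turned for Dnmt3b (-0.16), Fgf4 (-0.21), Lin28a (-0.41), Nars (-0.36), Pou5f1 (-0.039) and Tars (-0.41). Median centring turned the relative difference of Dnmt3b (0.18), Esrrb (0.40), Fgf4 (0.12), Pou5f1 (0.32), Tdgf1 (0.36) and Zfp42 (0.46). Over the mean of all probe sets the relative calls of Ccn1 (0.59), Esrrb (-0.23), Fgf4 (-0.16), Fgf5 (-0.36), Gata6 (0.35), Mta3 (0.33) and Spc25 (0.39) were lost. Without the trend in limma's test the relative calls of Nodal, Lef1, Ttr, Kif23, Dnajb9, Hspa5, Mpc1, Esrp1, Eomes and Pecam1 were lost. So were those of Pou3f1, Fgf4, Dnmt3b, Esrrb and Pou5f1, and the deposited calls of Bmp4, Junb, Lin28a, Nars and Tars. The cause of these changes was not tested. Signal close to background limits what can be called among dim genes.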

Other observations

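Genes of chromosome 11 were called higher relative to all genes more often than lower, 124 against 62 of 1452 genes, beside 1107 against 1060 of all 18193 genes (6.08% and 5.83%). This count was picked out after the values of all chromosomes had been seen, and it was not tested.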
